A study of Mus musculus with 12 samples.

Results

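The GADD45 family (growth arrest and DNA damage-inducible) has 3 genes in the mouse, Gadd45a, Gadd45b and Gadd45g, and its members were taken here as the genes listed under these 3 symbols, 3 of the 24421 genes in the count table. All 3 passed the filter on low counts and were among the 15220 genes tested. The 12 RNA-Seq libraries came from mouse embryonic fibroblasts (MEFs) in 4 groups of 3. The groups were WT MEFs (labelled Null) without treatment, WT MEFs after 8 hr in 100 µM etoposide, TFEB/TFE3 DKO MEFs without treatment, and TFEB/TFE3 DKO MEFs after 8 hr in 100 µM etoposide. The labels name no WT, and Null was taken as the study's WT because it is the only MEF genotype besides DKO. Etoposide is a topoisomerase II poison that breaks DNA, and TFEB and TFE3 are transcription factors of lysosomal and autophagy genes. The series asks how DNA damage changes expression and whether loss of TFEB and TFE3 alters that response. All cells were grown in high-glucose DMEM with fetal bovine serum. Each genotype was a single line, so genotype and line cannot be told apart. The study's methods name CRISPR-Cas9 for making both the WT and the DKO cells, and elsewhere give ATCC as the source of WT MEFs. The study describes the MEFs as immortalized with SV40, which can affect p53 stability, and this was shared by all 4 groups. The sample titles say Control and the submitters' treatment notes call these cells untreated, while the study's methods name DMSO. Either of a pair of RNA kits was used, without saying for which library, and nothing says that replicates came from separate cultures, so p-values measure only the spread between these libraries, which may be technical.

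GADD45 proteins are small acidic proteins without enzymatic activity that act by binding others. They activate the kinase MAP3K4 (MTK1) upstream of p38 and JNK, and bind PCNA, the CDK inhibitor p21 (Cdkn1a) and the mitotic kinase CDK1 with cyclin B1, and have been linked to growth arrest, DNA repair and DNA demethylation. Gadd45a is a classic p53 target of DNA damage in fibroblasts, Gadd45b is known as an NF-kB and TGF-beta target that limits JNK signalling, and Gadd45g is induced by cytokines and during differentiation.

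Libraries held 45577023 (DKO etoposide replicate 1) to 104120871 counts on genes (untreated DKO replicate 2). The members were far above the detection limit, with 3936 to 10050 counts per library for Gadd45a, 5129 to 15546 for Gadd45b and 1871 to 9126 for Gadd45g. Levels are CPM, the count of a gene divided by its library's TMM-scaled size. Tfeb, an edited gene, was at 38.9, 39.2 and 42.1 CPM in the untreated WT libraries and at 4.60, 6.09 and 4.68 CPM in the untreated DKO libraries. After etoposide it was at 11.4, 10.2 and 10.4 CPM in WT and 1.92, 1.61 and 2.20 CPM in DKO, so the genotypes were apart within each treatment and also over all libraries. Tfe3, the other edited gene, was still transcribed at 63.4 to 94.1 CPM in the DKO libraries, beside 68.1 to 115 CPM in WT. Of the 8 fibroblast markers each had a median above 1 CPM, vimentin (Vim) having the highest, but Thy1 ranged from 0.0168 to 4.50 CPM and so was not detected in every library. Their summed level was 6789, 6787 and 6891 CPM in untreated WT and 3848, 3730 and 3723 CPM in WT after etoposide. In DKO MEFs it was 10972, 11574 and 11018 CPM untreated and 4955, 5032 and 4689.6 CPM after etoposide, so it moved with both treatment and genotype. Ptprc, Cd3e, Myod1, Epcam and Sox10, which define leukocytes, T cells, muscle, epithelium and neural crest, each had a median under 1 CPM. The leukocyte sum, mostly Cd68, was 12.6 to 13.9 CPM in WT MEFs after etoposide, 3.24 to 3.96 CPM in DKO MEFs after etoposide and at most 2.12 CPM in the untreated libraries. The epithelial sum was 5.04 to 5.92 CPM in untreated DKO and 1.95 to 2.27 CPM in DKO after etoposide. In WT it was 2.26 to 2.87 CPM untreated and 2.32 to 2.68 CPM after etoposide. Its top gene was Krt8, at 0.355 to 5.45 CPM, which was not most of the sum in every library. The muscle sum, mostly Des, reached 33.6 to 38.5 CPM in WT MEFs after etoposide and stayed at or below 2.58 CPM elsewhere. The endothelial sum was 0.0307 to 0.123 CPM in untreated WT and 0.889 to 1.39 CPM in WT after etoposide. In DKO it was 0.0217 to 0.105 CPM untreated and 0.526 to 1.07 CPM after etoposide. The neural sum, mostly Tubb3, was 59.7 to 68.1 CPM in WT over both treatments. In DKO it was 15.3 to 17.2 CPM untreated and 29.2 to 31.3 CPM after etoposide. The part of these marker changes in the results was not tested, and in bulk RNA a change in the mix of cells and a change in RNA per cell cannot be told apart.

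Gadd45a lies on chromosome 6 (chr6:67035096-67037457, minus strand), Gadd45b on chromosome 10 (chr10:80930073-80932204, plus strand) and Gadd45g on chromosome 13 (chr13:51846678-51848468, plus strand), by GENCODE M21 on GRCm38. Their coding sequences are of similar length, at 495, 480 and 477 bases. Exons of Gadd45a overlap the noncoding gene E230016M11Rik on the opposite strand, which had 25 to 162 counts per library, and the strand setting of the counting is not given in the sources used here. Exons of Gadd45b and Gadd45g overlap no other annotated gene, and neither shared a stretch of 31 bases with the transcripts of another gene. Of 1820 such stretches in Gadd45a transcripts, 309 were shared with E230016M11Rik. The 250 bases before each RefSeq start are shown because the members, although 1 family, moved differently, and these windows show which known motifs they share. Sequences are from RefSeq on GRCm38.p6, read 5′ to 3′ on the gene's strand, and are chr6:67037408-67037657 (minus), chr10:80929841-80930090 (plus) and chr13:51846425-51846674 (plus). The GENCODE models of Gadd45a and Gadd45b begin slightly upstream of the RefSeq starts, so the last bases of those windows fall in their annotated first exons, and the Gadd45a window lies within the span of E230016M11Rik. Capitals mark matches on either strand to CCAAT (the NF-Y box), CACGTG (an E-box), TTTGCAT (an octamer-like element), TGCATCA (the composite C/EBP-ATF element), GGGCGG (an Sp1 box) and the p53 half-site.
Gadd45a: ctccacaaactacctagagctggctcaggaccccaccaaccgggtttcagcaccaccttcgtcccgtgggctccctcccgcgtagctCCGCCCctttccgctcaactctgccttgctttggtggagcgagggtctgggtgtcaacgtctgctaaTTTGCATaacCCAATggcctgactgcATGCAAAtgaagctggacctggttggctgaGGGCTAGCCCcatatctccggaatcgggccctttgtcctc
Gadd45b: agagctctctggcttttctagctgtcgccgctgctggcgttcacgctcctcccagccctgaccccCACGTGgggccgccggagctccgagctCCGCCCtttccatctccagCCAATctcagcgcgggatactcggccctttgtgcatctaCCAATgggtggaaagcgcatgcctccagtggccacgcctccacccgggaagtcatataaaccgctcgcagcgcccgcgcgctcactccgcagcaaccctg
Gadd45g: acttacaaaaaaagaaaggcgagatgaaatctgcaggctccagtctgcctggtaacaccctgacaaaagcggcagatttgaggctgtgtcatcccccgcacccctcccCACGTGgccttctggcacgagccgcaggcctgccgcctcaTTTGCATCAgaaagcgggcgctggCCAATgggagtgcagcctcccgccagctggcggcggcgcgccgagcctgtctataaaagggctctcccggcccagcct
CCAAT was the only searched motif found in all 3 windows, and 33.8% of the 32851 promoters of this length hold it. The Gadd45b window has 2 copies, which 10.1% of promoters hold. The Gadd45a window has 2 copies of TTTGCAT, 1 on each strand, which 0.247% of promoters hold, and a p53 half-site, which 7.13% hold. This p53 match lies 40 to 31 bases before the RefSeq start, within the first exon of the GENCODE model. Gene bodies were not searched for p53 sites. Gadd45b and Gadd45g each have 1 CACGTG, which 6.02% hold. The Gadd45g window joins TTTGCAT (4.12% of promoters) and TGCATCA (2.68%) in 1 overlapping run. GGGCGG, which 32.7% hold, was found once in Gadd45a and once in Gadd45b. TCATGTG and the NF-kB site were in none of the 3 windows, and 3.25% and 3.90% of promoters hold them. A match describes letters only and does not show that a factor binds.

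Gadd45a, the member best known as a p53 target, was at 108, 102 and 96.9 CPM in the untreated WT libraries (replicates 1, 2 and 3) and at 79.4, 80.6 and 77.5 CPM after etoposide. In DKO MEFs it was at 112, 109 and 108 CPM untreated and 79.6, 70.8 and 72.2 CPM after etoposide. All 6 etoposide libraries lay below all 6 untreated libraries, and the gene was nowhere higher after DNA damage. The order of the group means was 109.6 ± 2.08 CPM in untreated DKO, 102 ± 5.37 in untreated WT, 79.1 ± 1.57 in WT after etoposide and 74.2 ± 4.75 in DKO after etoposide (SD, n = 3 each), and within each treatment the genotypes did not differ past the threshold. Gadd45b, the NF-kB and TGF-beta target, was at 87.2, 86.0 and 79.2 CPM in untreated WT and at 122, 133 and 144 CPM in WT after etoposide. In DKO MEFs it was at 134, 139.9 and 127 CPM untreated and 145, 149 and 154 CPM after etoposide. The untreated WT libraries were the lowest, and the untreated DKO libraries lay in the range of the WT libraries after etoposide, though below them with library size alone. Its order was 149.6 ± 4.70 CPM in DKO after etoposide, 134 ± 6.62 in untreated DKO, 133 ± 11 in WT after etoposide and 84.1 ± 4.30 in untreated WT (SD, n = 3 each), and the middle groups overlapped. Gadd45g, the cytokine and differentiation-associated member, was at 52.9, 54.6 and 47.4 CPM in untreated WT and 48.1, 50.8 and 52.98 CPM in WT after etoposide. In DKO MEFs it was at 96.9, 99.2 and 83.4 CPM untreated and 37.9, 35.1 and 30.8 CPM after etoposide. The untreated DKO libraries stood above all others and the treated DKO libraries below all others, while the WT groups overlapped. Its order was 93.2 ± 8.54 CPM in untreated DKO, 51.6 ± 3.78 in untreated WT, 50.6 ± 2.46 in WT after etoposide and 34.6 ± 3.57 in DKO after etoposide (SD, n = 3 each), and the WT groups did not differ beyond their spread.

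**Figure D1:**
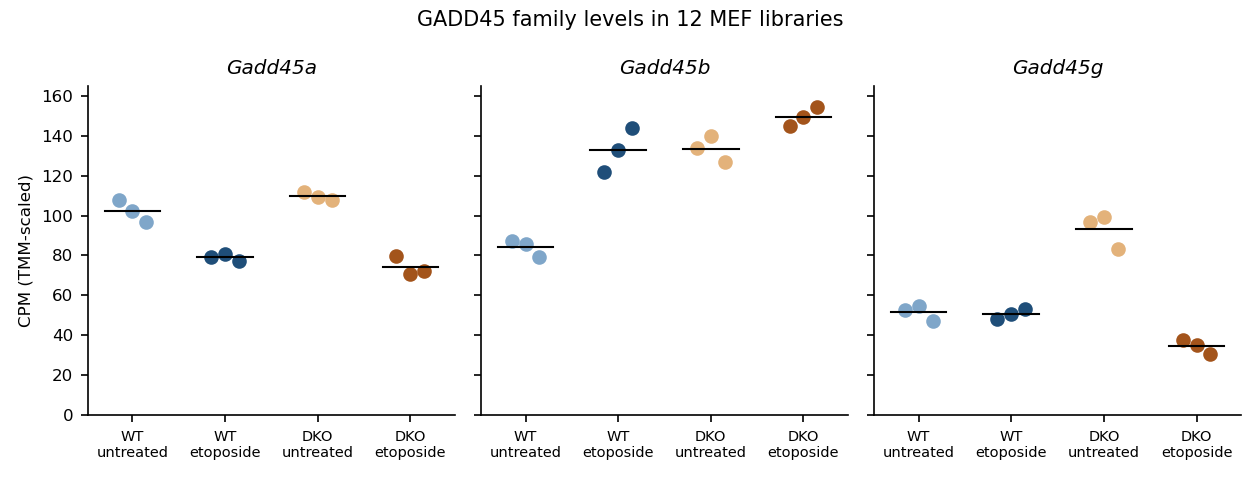
Levels of Gadd45a, Gadd45b and Gadd45g in each of the 12 libraries, in CPM after TMM scaling on a linear axis. Points are libraries, ordered as replicates 1 to 3 within a group, and lines are group means (n = 3), with Gadd45g highest in untreated DKO MEFs (83.4 to 99.2 CPM) and lowest in DKO MEFs after etoposide (30.8 to 37.9 CPM).

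The response of WT MEFs to DNA damage split the family. Gadd45a fell, Gadd45b rose and Gadd45g did not change past the threshold. Gadd45a shifted by -0.37 in log2 fold change (with a standard error, SE, of 0.05 and a Benjamini-Hochberg adjusted p of 9.24e-07 by the quasi-likelihood F-test in edgeR), and its groups did not overlap. Gadd45b shifted by 0.66 (SE 0.05, adjusted p of 5.02e-09 by this edgeR test), with no overlap of the groups. Gadd45g was at -0.03 with a 95% interval from -0.19 to 0.13 (adjusted p of 0.725 by this edgeR test), and with library-size scaling it was 0.14, also not past the threshold. So 1 of 3 members was higher, beside 42.3% of all genes tested, and 1 of 3 was lower, beside 37.2%, and these shares are near the background. The changes were of ordinary size, since 64.0% of tested genes had a larger absolute log2 fold change than Gadd45a and 45.2% a larger one than Gadd45b. Scaling by library size alone moved the split of all changed genes from 6435 higher and 5656 lower to 7803 and 4396 and the median log2 fold change by 0.17, and under it Gadd45a still fell, by 0.20 on the log2 scale.

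In DKO MEFs the same treatment lowered Gadd45a and Gadd45g, while Gadd45b rose, by an amount that depended on the scaling. Gadd45g fell to 0.369 times its level in untreated DKO MEFs, a shift of -1.44 in log2 terms (SE 0.08, Benjamini-Hochberg adjusted p of 1.28e-11 by the quasi-likelihood F-test in edgeR), with no overlap of the groups. Only 20.8% of tested genes had a larger absolute change. Gadd45a had a log2 fold change of -0.57 (SE 0.05, adjusted p of 5.29e-09 by this edgeR test), also with no overlap. Gadd45b had one of 0.16 (SE 0.05, adjusted p of 0.0121 by this edgeR test), and this call was lost without untreated replicate 1 or 3 or without etoposide replicate 3, where the log2 fold change was 0.14, 0.12 and 0.13. Of the 3 members 1 was higher, beside 43.7% of all genes tested, and 2 were lower, beside 31.5%. With library-size scaling the split of all changed genes went from 6645 higher and 4790 lower to 9316 and 3006 and the median log2 fold change moved by 0.27. Each member kept its direction under it, but Gadd45b was then at 0.44, Gadd45a at -0.29 and Gadd45g at -1.17.

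Whether the response to etoposide itself differed between the genotypes was tested by the interaction term, the change in DKO minus the change in WT MEFs. For Gadd45g it was -1.41 (SE 0.11, Benjamini-Hochberg adjusted p of 5.24e-09 by the quasi-likelihood F-test in edgeR), so its response differed between the genotypes. For Gadd45b it was -0.50 (SE 0.08, adjusted p of 3.12e-05 by this edgeR test), a smaller rise in DKO MEFs that began from a higher level. For Gadd45a it was -0.19 (SE 0.06, adjusted p of 0.0176 by this edgeR test), a slightly deeper fall, and this call was lost with library-size scaling (-0.09) and without untreated WT replicate 3 (-0.15). All 3 members were below 0 and past the threshold, beside 24.4% of all genes tested, and 0 were above, beside 29.6%. Over all genes 4507 were past the threshold above 0 and 3719 below 0, or 5735 and 3055 with library-size scaling, which moved the median by 0.10 on the log2 scale, and 3797 and 4192 with DESeq2's size factors, where the majority turned.

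Without treatment Gadd45b and Gadd45g were higher in the DKO line than in the WT line. Gadd45g was higher by 0.85 on the log2 scale in untreated DKO against untreated WT MEFs (SE 0.07, Benjamini-Hochberg adjusted p of 1.30e-08 by the quasi-likelihood F-test in edgeR) and Gadd45b by 0.67 (SE 0.06, adjusted p of 6.93e-09 by this edgeR test), each with no overlap between genotypes. Gadd45a was at 0.10 with a 95% interval from 0.00 to 0.20 (adjusted p of 0.0648 by this edgeR test). Its groups did not overlap, though only by a narrow margin, it passed the threshold without untreated WT replicate 1 (0.14), and library-size scaling turned the direction (-0.02). Thus 2 of 3 members were higher, beside 33.3% of all genes tested, and 0 were lower, beside 33.4%. Over all genes 5066 were higher and 5091 lower, or 3977 and 6393 with library-size scaling, which moved the median by -0.12. After etoposide the picture was reversed for Gadd45g, which was lower in DKO MEFs with a log2 fold change of -0.56 (SE 0.08, adjusted p of 3.81e-06 by this edgeR test). Gadd45b remained slightly higher at 0.17 (SE 0.05, adjusted p of 0.00895 by this edgeR test), a call lost with DESeq2, with its size factors in edgeR and with a stricter filter (0.11 each), and without WT etoposide replicate 1 (0.11) or DKO etoposide replicate 3 (0.13). Gadd45a was at -0.10 with a 95% interval from -0.19 to 0.00 and overlapping groups (adjusted p of 0.0726 by this edgeR test), and it passed the threshold with 6 analysis alternatives and without DKO etoposide replicate 1 (-0.17). After etoposide 1 of 3 members was higher, beside 37.5% of all genes tested, and 1 was lower, beside 36.6%. Over all genes 5701 were then higher and 5569 lower, or 5072 and 6096 with DESeq2's size factors. The comparisons share libraries, so their values for a gene are not independent.

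**Figure D2:**
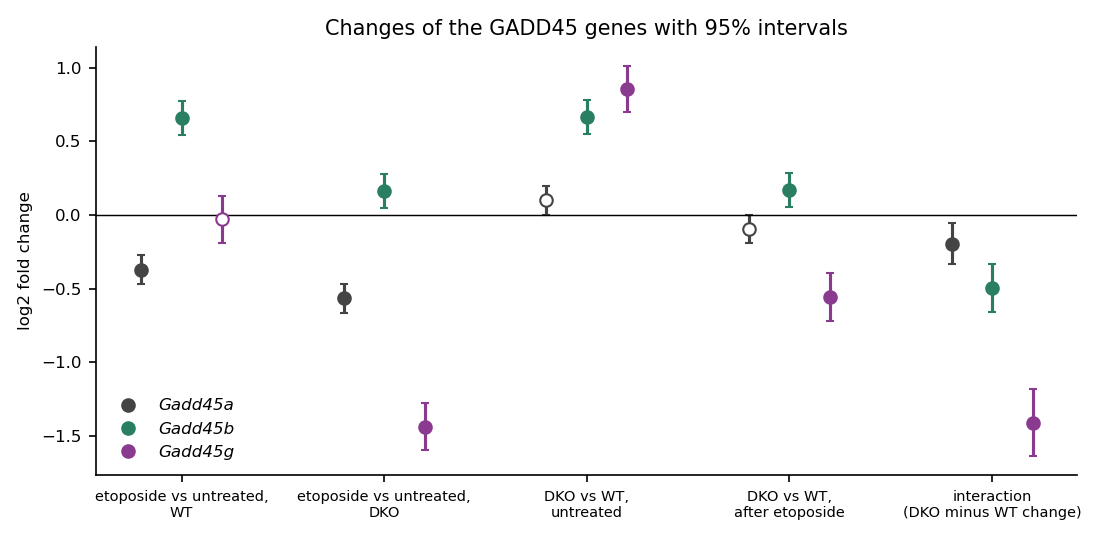
Log2 fold changes of Gadd45a, Gadd45b and Gadd45g in the 5 comparisons, from edgeR's quasi-likelihood fit of 12 libraries. Bars are 95% intervals, filled points passed an adjusted p of 0.05 and open points did not, and Gadd45g shows the largest values, from 0.85 in untreated DKO against WT MEFs to -1.44 for etoposide in DKO MEFs.

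Because counts grow with transcript length, the members were compared with each other per kilobase of merged exons (1764, 1589 and 1173 bases), as shares of the family total within each library, which do not depend on library scaling. The length of Gadd45a includes its overlap with E230016M11Rik. If reads there were not counted, its level per kilobase and its share would be too low. In untreated WT MEFs the order was Gadd45a at 58.0 ± 3.04, Gadd45b at 52.9 ± 2.70 and Gadd45g at 44.0 ± 3.22 CPM per kb (SD, n = 3). After etoposide Gadd45b led in WT at 83.7 ± 6.92 CPM per kb, and Gadd45a and Gadd45g, at 44.9 ± 0.892 and 43.2 ± 2.10, overlapped. In untreated DKO MEFs Gadd45b (84.1 ± 4.17) and Gadd45g (79.4 ± 7.28 CPM per kb) overlapped and Gadd45a was lowest at 62.1 ± 1.18. In DKO MEFs after etoposide the order was Gadd45b at 94.1 ± 2.96, Gadd45a at 42.1 ± 2.69 and Gadd45g at 29.5 ± 3.04 CPM per kb, with no overlap. In these libraries the make-up of the family leaned more to Gadd45b with etoposide in both genotypes. Its share went from 34.1, 34.1 and 34.3% to 47.2, 48.5 and 50.4% in the WT libraries and from 36.6, 37.5 and 37.6% to 54.1, 57.3 and 59.1% in the DKO libraries. The share of Gadd45a went from 37.4 ± 0.764 to 26.2 ± 1.62% in WT MEFs, while in DKO MEFs it was 27.6 ± 1.21 and 25.4 ± 1.23% with overlapping groups. The share of Gadd45g went from 28.4 ± 0.824 to 25.1 ± 0.0602% in WT and from 35.1 ± 1.39 to 17.8 ± 1.63% in DKO (SD, n = 3). Each change of share without overlap reached the smallest p that 3 libraries against 3 allow, 0.1 in a two-sided exact permutation test, and so could not pass 0.05. The ratio of Gadd45b to Gadd45a went from 0.899, 0.933 and 0.907 to 1.71, 1.83 and 2.06 in WT and from 1.33, 1.42 and 1.31 to 2.02, 2.34 and 2.37 in DKO libraries. The ratio of Gadd45b to Gadd45g went from 1.20 ± 0.0372 to 1.94 ± 0.0666 in WT and from 1.06 ± 0.0530 to 3.22 ± 0.443 in DKO (SD, n = 3). The family total was 155 ± 8.54 CPM per kb in untreated WT, 172 ± 8.53 in WT after etoposide, 226 ± 12.1 in untreated DKO and 166 ± 2.56 in DKO after etoposide (SD, n = 3), so it was highest in untreated DKO MEFs, but this total depends on the scaling, and with library size alone those libraries overlapped the WT libraries after etoposide. With the longest annotated transcript as length (1223, 1284 and 1071 bases), Gadd45a and Gadd45g changed places in untreated DKO MEFs, at 89.6 ± 1.70 and 87.0 ± 7.97 CPM per kb with overlap, in untreated WT they were at 83.6 ± 4.39 and 48.2 ± 3.53 with Gadd45b at 65.5 ± 3.35, and in WT after etoposide Gadd45a (64.7 ± 1.29) stood above Gadd45g (47.3 ± 2.30). The other orders were the same, but the Gadd45a share in DKO MEFs no longer overlapped, at 30.7 to 33.3% untreated and 28.0 to 30.5% after etoposide.

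**Figure D3:**
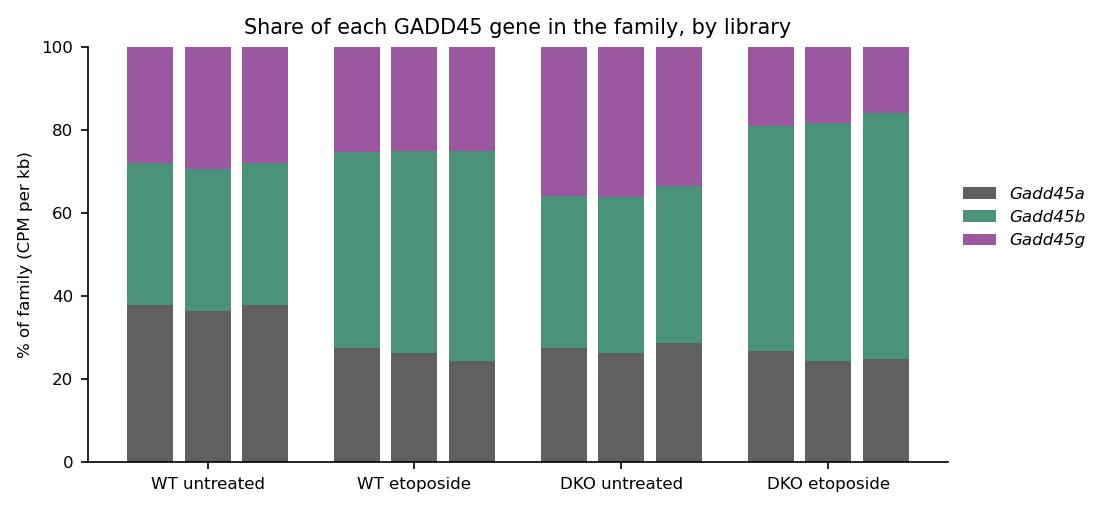
Share of each GADD45 gene in the family total of CPM per kb of merged exons, in % and by library (n = 3 per group, replicates 1 to 3 from left to right). The Gadd45b share was 34.1 to 34.3% in untreated WT and 54.1 to 59.1% in DKO MEFs after etoposide, and the Gadd45g share was highest in untreated DKO MEFs, at 33.5 to 36.1%.

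The fall of Gadd45a was set beside other p53 targets in the same libraries. Of 14 such genes 12 rose and 2 fell with etoposide in WT MEFs, beside 42.3% and 37.2% of all genes tested. Their median log2 fold change was 1.30 beside 0.07 over all genes tested. Cyclin G1 (Ccng1) rose from 116 ± 1.67 to 2102 ± 15.6 CPM, Mdm2, the ubiquitin ligase of p53, from 121 ± 5.71 to 1834 ± 55.8 CPM and Cdkn1a, the CDK inhibitor that GADD45 proteins bind, from 65.7 ± 5.72 to 506 ± 7.31 CPM (SD, n = 3 each). Their log2 fold changes were 4.18, 3.92 and 2.94, with Benjamini-Hochberg adjusted p of 9.89e-21, 9.89e-21 and 9.38e-18 by the quasi-likelihood F-test in edgeR. The 2 that fell, named after their values were seen, were the stress-responsive sestrin Sesn2 (-0.23) and the kinase Plk3 (-0.98). Gadd45a at -0.37 thus lay on the side of these 2, not of the 12. In DKO MEFs 11 of the 14 rose and 3 fell, beside 43.7% and 31.5% of all genes, with a median of 0.78 beside 0.14. The 3 were Sesn2, Plk3 and the polo-like kinase Plk2, which had a log2 fold change of 0.73 in WT and -0.69 in DKO MEFs. Sesn2 was at -0.27 in DKO MEFs. Library-size scaling moved the medians over all genes by 0.17 in WT and 0.27 in DKO MEFs. The falls of Sesn2 are near these shifts, and Sesn2 was not rerun with that scaling for etoposide. Whether Sesn2 fell at all may therefore depend on the scaling, as does the size of its falls. The interaction was past the threshold below 0 for 9 and above 0 for 1 of the 14, beside 24.4% and 29.6% of all genes. Its median was -0.67 beside 0.05 over all genes. After etoposide 12 of the 14 were lower and 2 higher in DKO than in WT MEFs, beside 36.6% and 37.5% of all genes. The median was -0.73 beside -0.00 over all genes. Untreated, 5 were higher and 8 lower, beside 33.3% and 33.4% of all genes, with a median of -0.16 beside -0.02.

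The rise of Gadd45b was set beside 8 other NF-kB targets. Of these 2 rose and 5 fell with etoposide in WT MEFs, beside 42.3% and 37.2% of all genes. Their median log2 fold change was -0.59 beside 0.07 over all genes. The adhesion molecule Icam1 went from 0.886 ± 0.247 to 2.68 ± 0.195 CPM (SD, n = 3), a log2 fold change of 1.57 at a low level, and the inhibitor Nfkbia, named after its values were seen, rose by 0.82. Nfkbie, another inhibitor of NF-kB, and Bcl3, a coactivator, fell with log2 fold changes of -1.87 and -1.55 (Benjamini-Hochberg adjusted p of 1.76e-16 and 3.23e-12 by the quasi-likelihood F-test in edgeR). In DKO MEFs 1 rose (Nfkbia, 0.32) and 6 fell, beside 43.7% and 31.5% of all genes. The median was -1.57 beside 0.14 over all genes, so Gadd45b went with the minority of this list in both genotypes. In untreated DKO against WT MEFs, where Gadd45b was higher, 5 of the 8 were higher and 3 lower, beside 33.3% and 33.4% of all genes. The median of the 8 was 0.24 beside -0.02 over all genes. Icam1 was at 9.87 ± 0.847 CPM in untreated DKO and 0.886 ± 0.247 in untreated WT MEFs, and Tnfaip3, which ends NF-kB signalling, at 192 ± 15.6 and 85.5 ± 3.85 CPM (SD, n = 3 each). Their interactions, -3.11 and -1.67 on the log2 scale, were past the threshold (adjusted p of 1.60e-09 and 6.64e-12 by this edgeR test), as was that of Gadd45b. After etoposide 3 of the 8 were higher and 4 lower in DKO MEFs, beside 37.5% and 36.6% of all genes. In the interaction 1 was past the threshold above 0 and 5 below, beside 29.6% and 24.4%.

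**Figure D4:**
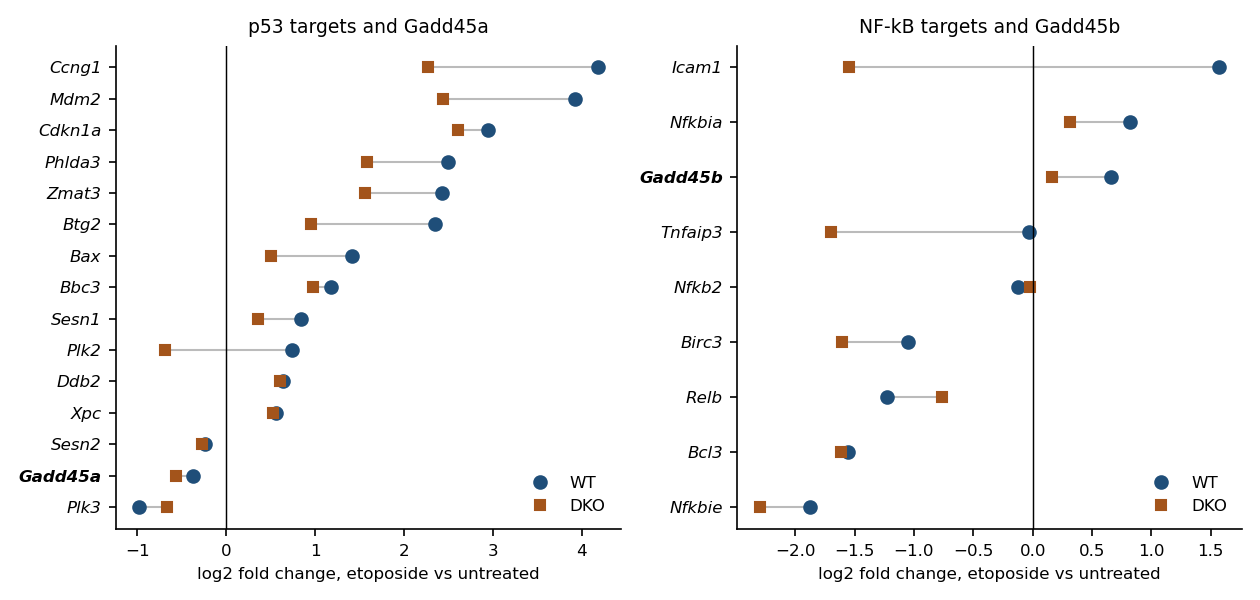
Log2 fold changes with etoposide in WT (circles) and DKO MEFs (squares) for 14 p53 targets with Gadd45a and for 8 NF-kB targets with Gadd45b, ordered by the WT value. A line joins the values of a gene, and Gadd45a (-0.37 and -0.57) lies below 0 where 12 p53 targets lie above 0 in WT MEFs.

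Among 21 tested genes of 22 known transcriptional regulators of GADD45 genes (Wt1 was not tested), 6 rose and 12 fell with etoposide in WT MEFs and also 6 and 12 in DKO MEFs. Of all genes 42.3% were higher and 37.2% lower in WT MEFs, and 43.7% and 31.5% in DKO MEFs. The regulators had medians of -0.25 and -0.26 beside 0.07 and 0.14 over all genes. Smad3, which transmits TGF-beta signals, fell in both genotypes, with log2 fold changes of -1.99 and -2.86, and Nfkb1, which encodes an NF-kB subunit, fell with -2.10 in WT MEFs (Benjamini-Hochberg adjusted p of 1.18e-17, 4.27e-19 and 6.31e-18 by the quasi-likelihood F-test in edgeR). Cebpa, a differentiation factor, rose in WT MEFs from 5.46 ± 1.07 to 24.1 ± 2.75 CPM (SD, n = 3). The forkhead factor Foxo1, a known activator of GADD45 genes, was at 40.1 ± 0.226 CPM in untreated WT, 32.8 ± 1.10 in WT after etoposide, 164 ± 3.62 in untreated DKO and 32.1 ± 2.05 in DKO after etoposide (SD, n = 3 each). Its interaction was -2.06 (adjusted p of 6.34e-14 by this edgeR test). Myc, a known repressor of Gadd45a, fell from 252 ± 18.1 to 91.6 ± 7.35 CPM in WT and from 285 ± 13.7 to 65.2 ± 1.74 CPM in DKO MEFs (SD, n = 3). Whether the changes in Myc, Foxo1 or the other regulators bear on the GADD45 genes was not tested. Between genotypes 9 regulators were higher and 9 lower in untreated DKO MEFs, 8 and 10 after etoposide, and 6 and 7 were past the threshold above and below 0 in the interaction, among them the octamer factor Pou2f1 (1.12). Of all genes 33.3% were higher and 33.4% lower in untreated DKO MEFs, and 37.5% and 36.6% after etoposide. The medians of -0.09, -0.03 and -0.02 stood beside -0.02, -0.00 and 0.05 over all genes, and the interaction counts were near the 29.6% and 24.4% of all genes. The subunits of the factor that binds CCAAT did not go together there, with Nfyb at -1.002, Nfya at 0.24 and Nfyc at 0.24, each past the threshold, Nfya and Nfyc being named after their values were seen.

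Of 18 partners of GADD45 proteins, 6 rose and 10 fell with etoposide in WT MEFs, beside 42.3% and 37.2% of all genes. In DKO MEFs 6 rose and 7 fell, beside 43.7% and 31.5%. The medians were -0.23 and -0.02 beside 0.07 and 0.14 over all genes. The risers included Cdkn1a, the repair nuclease Ercc5 (XPG), from 13.2 ± 0.191 to 121 ± 6.03 CPM, and the DNA demethylation enzyme Tet1, from 1.95 ± 0.192 to 13.9 ± 1.76 CPM (SD, n = 3) in WT MEFs. The genes of the mitotic kinase complex that GADD45 proteins inhibit, Cdk1 and Ccnb1, fell in both genotypes. Their log2 fold changes were -0.67 and -0.93 in WT MEFs and -0.42 and -0.93 in DKO MEFs. The kinase Map3k4, which GADD45 proteins activate, fell by 0.52 in WT and 0.56 in DKO MEFs. Cdk1 and Map3k4 were named after their values were seen. Between genotypes 4 partners were higher and 8 lower in untreated DKO MEFs, beside 33.3% and 33.4% of all genes. After etoposide 5 were higher and 9 lower, beside 37.5% and 36.6%. In the interaction 5 and 4 were past the threshold above and below 0, near the 29.6% and 24.4% of all genes. The medians were -0.08, -0.10 and 0.04. Of 18 tested genes of the p38 and JNK cascade (Mapk10 was not tested), 4 rose and 13 fell in WT MEFs and 5 and 9 in DKO MEFs, with medians of -0.17 and -0.13 beside the same 0.07 and 0.14, where 42.3% and 43.7% of all genes were higher and 37.2% and 31.5% lower. The MAPK-activated kinase Mapkapk3 rose from 12.4 ± 0.591 to 58.6 ± 1.35 CPM in WT MEFs and from 12.1 ± 0.339 to 26.3 ± 0.285 CPM in DKO MEFs (SD, n = 3). Jun, the transcription factor that JNK phosphorylates, rose from 138 ± 6.46 to 359 ± 1.34 CPM in WT and fell from 219.9 ± 15.1 to 171 ± 9.74 CPM in DKO MEFs (SD, n = 3), with an interaction of -1.75 (Benjamini-Hochberg adjusted p of 1.60e-12 by the quasi-likelihood F-test in edgeR). Map2k3, a kinase of p38, fell in DKO MEFs with a log2 fold change of -1.16 and had an interaction of -1.02 (adjusted p of 2.25e-11 by this edgeR test). Between genotypes 8 of the 18 cascade genes were higher and 4 lower untreated and 5 and 6 after etoposide. In the interaction 5 and 6 were past the threshold above and below 0. The medians were 0.00, -0.04 and -0.03, and the shares of all genes are those given above for the partners.

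Of 5 other genes found in growth arrest and DNA damage screens, 2 rose and 2 fell with etoposide in WT MEFs, beside 42.3% and 37.2% of all genes, and 1 rose and 3 fell in DKO MEFs, with medians of -0.14 and -0.09 beside 0.07 and 0.14. So few genes near the background do not make a result about this list. Ddit3 (GADD153), the CHOP factor of endoplasmic reticulum stress, fell from 109 ± 2.42 to 32.8 ± 1.61 CPM in WT and from 118 ± 2.55 to 38.7 ± 1.83 CPM in DKO MEFs (SD, n = 3). Ppp1r15a (GADD34), which restores translation after stress, fell by 0.28 in WT MEFs on the log2 scale and was named after its values were seen. In DKO MEFs it was at -0.09, barely past the threshold with overlapping groups and less than the shift that library-size scaling brings there. Gas1, a growth arrest gene of the cell membrane, went in opposite directions, from 67.2 ± 2.02 to 302 ± 24.9 CPM in WT and from 143 ± 6.45 to 43.3 ± 2.21 CPM in DKO MEFs (SD, n = 3), and its interaction was -3.90 (Benjamini-Hochberg adjusted p of 1.10e-15 by the quasi-likelihood F-test in edgeR). Untreated, 3 were higher and 1 lower in DKO MEFs, and after etoposide 2 and 3. In the interaction 2 were past the threshold above 0 and 2 below. Of all genes 33.3% were higher and 33.4% lower untreated, 37.5% and 36.6% after etoposide, and 29.6% and 24.4% above and below 0 in the interaction. The numbers of p53 targets, NF-kB targets and growth arrest genes higher in DKO MEFs after etoposide were small and changed with several alternatives. GADD45 proteins share their fold with ribosomal L7Ae and L30e proteins. Of 6 genes of that fold 3 rose and 2 fell in WT MEFs, near the 42.3% and 37.2% of all genes. In DKO MEFs 5 rose, beside 43.7% of all genes. The medians were 0.09 and 0.39 beside 0.07 and 0.14. All 6 genes of that fold were lower in untreated DKO than in untreated WT MEFs, beside 33.4% of all genes, with a median of -0.41 beside -0.02. After etoposide 2 were lower, near the 36.6% of all genes. Rps12, among these 2, lost its call without WT etoposide replicate 2 or 3 (-0.11 each). In the interaction 5 of the 6 were past the threshold above 0, beside 29.6% of all genes, while the GADD45 genes were below 0. The median of the 6 was 0.35 beside 0.05 over all genes. Rpl30 was at a low level, with 3.84 ± 0.504 CPM in untreated WT and 2.24 ± 0.168 in untreated DKO MEFs (SD, n = 3). Exons of Rpl7a, Rpl30 and Rps12 overlap other genes on the same strand, so their counts may be incomplete.

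Across the 12 libraries the log2 CPM of Gadd45a and Gadd45g had a Pearson correlation of 0.83 and a Spearman correlation of 0.83, those of Gadd45a and Gadd45b -0.52 and -0.50, and those of Gadd45b and Gadd45g -0.08 and -0.34. These describe 12 libraries that fall into 4 groups and share treatments and lines. Among 9352 other genes whose mean reached 10 CPM, the patterns most like Gadd45a were those of the neurotrophin gene Bdnf, the immediate early gene Egr2 and the actin-capping gene Capzb, each with a Pearson correlation of 0.99 (n = 12). Bdnf was at 63.5 ± 2.08 CPM in untreated WT, 28.4 ± 1.43 in WT after etoposide, 78.5 ± 2.40 in untreated DKO and 24.7 ± 2.05 in DKO after etoposide (SD, n = 3 each), the same order as Gadd45a with a larger span. Most like Gadd45b were Eif2d (0.99), which acts in translation initiation, Uckl1 (0.98), a uridine kinase-like gene, and Fh1 (0.98), the fumarase of the citric acid cycle, which had 67.4 ± 0.846, 100.1 ± 3.59, 99.8 ± 2.47 and 114 ± 4.95 CPM in the same 4 groups (SD, n = 3 each). Most like Gadd45g were Mxra8 (0.99), a cell adhesion gene, Pcif1 (0.98), an mRNA cap methyltransferase, and Nr4a1 (0.98), an immediate early nuclear receptor. Nr4a1 was at 28.1 ± 2.12 CPM in untreated WT, 29.4 ± 2.79 in WT after etoposide, 75.3 ± 8.49 in untreated DKO and 11.9 ± 3.93 in DKO after etoposide (SD, n = 3 each). With Spearman correlations the closest genes changed, and 1, 0 and 1 of the 3 named for Gadd45a, Gadd45b and Gadd45g stayed among the closest 3.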

How the data were processed

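RNA-Seq was performed on 12 libraries, 3 per group, with groups and replicate numbers taken from the sample labels, where the control genotype is called Null. According to the study's methods the authors trimmed reads where needed, aligned pairs with HISAT2 and counted uniquely aligned pairs with HTSeq on GENCODE genes; the submitters' processing notes name featureCounts and build mm10. The authors deposited whole counts per gene without normalization. The table ends in 5 summary lines, which were used neither for library sizes nor for tests. Per library 53.4 to 63.1% of counts fell on genes, while 20.2 to 27.3% had no feature, 15.9 to 20.5% were not uniquely placed and 0.428 to 0.513% were ambiguous.

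The analysis used R 4.3.3 and edgeR 4.0.16 (filterByExpr, TMM, glmQLFit in its current form, glmQLFTest). A single model held the 12 libraries by group, without a block, with Benjamini-Hochberg adjustment over 15220 genes in each of 5 comparisons and a threshold of 0.05. Standard errors were the absolute log2 fold change divided by the square root of F. Replicates varied more than counting noise allows (10.8 to 22.6 for chi-square over its degrees of freedom). The members and 7 gene lists were chosen with earlier results of these data known. Named genes are the members, Tfeb, Tfe3, the 3 genes of each list with the largest absolute change past the threshold in a comparison, and the 3 genes most correlated with each member. Further list genes lie outside this rule and are marked as named after their values were seen. Cell type markers, list genes that were not tested and the gene overlapping Gadd45a are named besides. The table lists Snu13 as Nhp2l1. Alternatives were DESeq2 1.42.0, limma-trend (limma 3.58.1), DESeq2's size factors, library size alone, no or a stricter filter, a replicate block, robust dispersions, only the 6 libraries compared and each library left out. A legacy version of the fit, the sum of Gadd45a and E230016M11Rik counts, and all alternatives for lists were added after seeing the data.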

Additional observations from a re-analysis of the deposited data

Results flagged for a closer look

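The change brought by etoposide differed between the genotypes, by a test of the difference itself (the interaction term in edgeR, adjusted by Benjamini-Hochberg), for the 3 members, Tfeb, Tfe3 and the genes with the largest such difference in each list, at most 3 per list. Other genes named in the report, among them Smad3, Nfkb1, Myc and Cdkn1a, also passed this test and are not repeated here. Values are the change in DKO minus the change in WT MEFs on the log2 scale. Among the members it was -0.19 for Gadd45a, -0.50 for Gadd45b and -1.41 for Gadd45g. For the edited genes it was 0.49 for Tfeb and 0.28 for Tfe3. Among partners it was -1.16 for Ercc5, 0.44 for Npm1 and -0.45 for Rxra, and in the p38 and JNK cascade -1.02 for Map2k3, -1.12 for Mapkapk3 and -1.75 for Jun. Among regulators it was -2.06 for Foxo1, 1.12 for Pou2f1 and -1.002 for Nfyb, and among the other growth arrest genes -3.90 for Gas1, 0.72 for Gas2 and -1.60 for Gas6. Among NF-kB targets it was -1.67 for Tnfaip3, -0.55 for Birc3 and -3.11 for Icam1, and among p53 targets -1.48 for Mdm2, -1.91 for Ccng1 and -1.43 for Plk2. Among genes of the L7Ae and L30e fold it was 0.71 for Rpl30, 0.47 for Nhp2l1 and 0.38 for Secisbp2. Over all genes tested 54.0% passed the same test.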

How the results depend on the processing

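Over 260 values of the members under alternatives, 233 kept direction and side of the threshold, among them every one for Gadd45a and Gadd45b with etoposide in WT MEFs, Gadd45a and Gadd45g with etoposide in DKO MEFs, Gadd45b and Gadd45g in untreated DKO against WT MEFs, Gadd45g after etoposide and the interactions of Gadd45b and Gadd45g. Gadd45g with etoposide in WT MEFs turned from -0.03 to 0.0157 with DESeq2, 0.0160 with the size factors of DESeq2, 0.138 under library-size scaling and 0.0564 with the stricter filter, never past the threshold, and with a library left out ranged from -0.10 to 0.00 (0.000927 without untreated replicate 2, 0.000253 without etoposide replicate 1). Gadd45a in untreated DKO against WT MEFs turned to -0.0220 with library size alone, passed the threshold with only the 6 libraries compared (0.0902), and ranged from 0.0615 to 0.135 with a library left out. After etoposide Gadd45a passed it with DESeq2 (-0.15), DESeq2's size factors (-0.15), library size alone (-0.11), no filter (-0.11) and the stricter filter (-0.16), with a range of -0.166 to -0.0793 with a library left out. Gadd45b there no longer passed it with DESeq2 (0.11), DESeq2's size factors (0.11) and the stricter filter (0.11), with a range of 0.11 to 0.23. Gadd45b with etoposide in DKO MEFs ranged from 0.12 to 0.17 with a library left out. The interaction of Gadd45a was -0.0881, not past the threshold, with library size alone and ranged from -0.26 to -0.15. The number of genes lowered by etoposide in DKO MEFs was 4790 in the fit used, 3006 with library size alone, at most 5069 under the other alternatives and 4663 to 4858 with a library left out. Of 170 counts of changed genes 169 stayed within 1.5 times, but 48 of 1190 list counts did not, most often the numbers of p53 targets, NF-kB targets and growth arrest genes higher in DKO MEFs after etoposide and most often with library size alone, and 9 of 60 family shares moved by more than their SD, all with the longest transcript as length. The cause of these changes was not tested. Same-numbered replicates did not deviate together (correlations from -0.03 to 0.04 over 18 pairs), so the numbers were not taken to pair libraries. With the replicate block Gadd45a passed the threshold in DKO against WT MEFs untreated (0.10) and after etoposide (-0.0948), and changed genes with etoposide in WT MEFs were 6460 higher and 5651 lower. Adding the counts of E230016M11Rik to Gadd45a and the legacy fit, both chosen after seeing the data, changed no call of a member. Alternatives for single list genes were run only on the genes of each list with the largest changes, at most 3 per comparison. Of their 1721 values 1709 kept call and direction and 12 lost the call, 9 of them Icam1 in DKO against WT MEFs after etoposide. Other list genes were not covered. The search of gene bodies for p53 sites, of the 50 bases after each start, and the comparison of the 3 proteins were not run. Depth did not limit the members, but Icam1, Gas6, Rpl30, Map2k6 and, without etoposide, Tet1 were at low levels, and the fall of Rpl30 with etoposide in WT MEFs was not past the threshold with library size alone (-0.23).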
